A study of Homo sapiens with 6 samples.

Results

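Tubulins are the building blocks of microtubules. Heterodimers of alpha- and beta-tubulin polymerise into the microtubule wall, and gamma-tubulin sits in ring complexes that start new microtubules. Each family is encoded by several genes, called isotypes, that differ in the tissues where they are used. Cells also adjust tubulin production to demand: when free dimers accumulate, the protein TTC5 recognises the first residues of nascent alpha- and beta-tubulin on the ribosome and the mRNA being translated is degraded.

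The genes described here are 10 tubulins, 4 alpha (TUBA1A, TUBA1B, TUBA1C, TUBA4A), 5 beta (TUBB, TUBB2A, TUBB3, TUBB4B, TUBB6) and gamma-tubulin TUBG1, taken by symbol from the 23710 gene symbols counted in each library. The series measured mRNA by sequencing in K562, an established human cell line of chronic myelogenous leukaemia that has features of red cell precursors. The treated group received 20 µM 3FM-dC together with 2 mM THU for 24 h, and the control group received DMSO, the solvent of both compounds, for 24 h, with 3 libraries per group. Both compounds are known here only by these abbreviations. No library received 3FM-dC or THU alone, so their effects cannot be told apart. All cells came from the same line at passages given only as a range for all samples. The labels do not state whether replicates came from separate cultures. The p-values therefore set the group difference only against the variation among these libraries within a group, and that variation may be technical. In bulk RNA, fewer cells that make a transcript and less transcript per cell cannot be told apart.

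The treated libraries held 19052821, 20176827 and 20737363 counts in genes, and the DMSO libraries held 18610733, 18408826 and 22750278. Of 9 markers of the erythroid K562 state, among them the gamma-globin genes and GATA1, none was at 0, with a summed level of 3724 to 3884 CPM in treated libraries and 7189 to 7377 CPM in DMSO libraries. CPM is the count over the TMM-scaled library size, brought to a common library size, where TMM matches libraries on the bulk of their genes. In the edgeR test described below, 8 of the 9 markers fell and 1 rose, against 32.7% and 33.8% of all tested genes. Whether the change in these markers bears on the tubulins was not tested. CD2 and MS4A1 of the lymphoid markers, CDH5 of the fibroblast and endothelial markers, KRT5 and KRT14 of the epithelial markers, and SYT1 and STMN2 of the neuronal markers had no count in any library. Other members of these lists were detected. The 4 epithelial markers summed to 60.6 to 63.6 CPM in treated and 102 to 103 CPM in DMSO libraries. The 6 lymphoid markers summed to 9.57 to 11.3 and 7.87 to 8.98 CPM, and the 6 fibroblast and endothelial markers to 7.28 to 11.6 and 10.3 to 13.9 CPM. The 5 neuronal markers summed to 0.102 to 0.328 CPM in treated libraries and to 0 in DMSO libraries.

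The start of the coding sequence is shown for some of the alpha and beta genes because it encodes the residues that the autoregulation machinery reads, and because it shows how alike the genes are at the base level. TUBG1 is shown for comparison of the letters only. Each line gives the first 30 coding bases in GENCODE 29, with the first 4 codons in capitals.
TUBA1A: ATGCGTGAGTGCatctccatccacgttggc
TUBA1B: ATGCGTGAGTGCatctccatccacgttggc
TUBA4A: ATGCGTGAATGCatctcagtccacgtgggg
TUBB: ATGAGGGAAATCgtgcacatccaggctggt
TUBB3: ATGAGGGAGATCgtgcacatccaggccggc
TUBG1: ATGCCGAGGGAAatcatcaccctacagttg

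The 30 bases were identical in 3 genes, TUBA1A, TUBA1B and TUBA1C, which lie together on chromosome 12. Their whole coding sequences were also alike, with TUBA1A 97.2% identical to TUBA1B and 95.9% identical to TUBA1C, whereas TUBA4A on chromosome 2 was 84.4% identical to TUBA1A. Among the beta genes, identity to TUBB ranged from 80.9% for TUBB6 on chromosome 18 to 84.6% for TUBB2A on chromosome 6. The likeness bears on counting, since a read from a shared stretch cannot be assigned to a single gene. Of all 100-base windows of the principal transcript, 26.6% in TUBA1A, 32.1% in TUBA1B and 11.5% in TUBA1C occurred in another of the 10 genes, against 0% in TUBA4A, TUBB and TUBB6. Counting any other annotated gene, among them transcripts annotated over the same locus, the shares were 26.6% for TUBA1A, 71.1% for TUBA1B, 29.6% for TUBA1C, 27.4% for TUBA4A, 20.4% for TUBB and 0% for TUBB6. How the authors treated reads with several origins is not given in the sources used here, so the levels of TUBA1A, TUBA1B and TUBA1C are uncertain.

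Most of the abundant tubulin transcripts were moderately lower in treated cells, while a pair of scarce ones was higher. In edgeR's quasi-likelihood fit of all 12339 tested genes, with Benjamini-Hochberg adjusted p, 7 of the 10 tubulins fell (32.7% of all tested genes did), 2 rose (33.8%) and TUBB2A did not pass. All 10 passed the filter on low counts. With libraries scaled by total counts instead, 5 fell and 3 rose, and over all genes 5048 rose and 3189 fell, against 4167 and 4031 with TMM. The CPM of 9 of the 10 did not overlap between the groups, as was the case for 70.0% of all tested genes. The median log2 fold change of the 10 was -0.21, against 0.01 over all tested genes, and -0.12 against 0.10 with total counts. Since 66.4% of all tested genes changed in either direction, the number of tubulins that changed is not in itself particular to them.

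**Figure D1:**
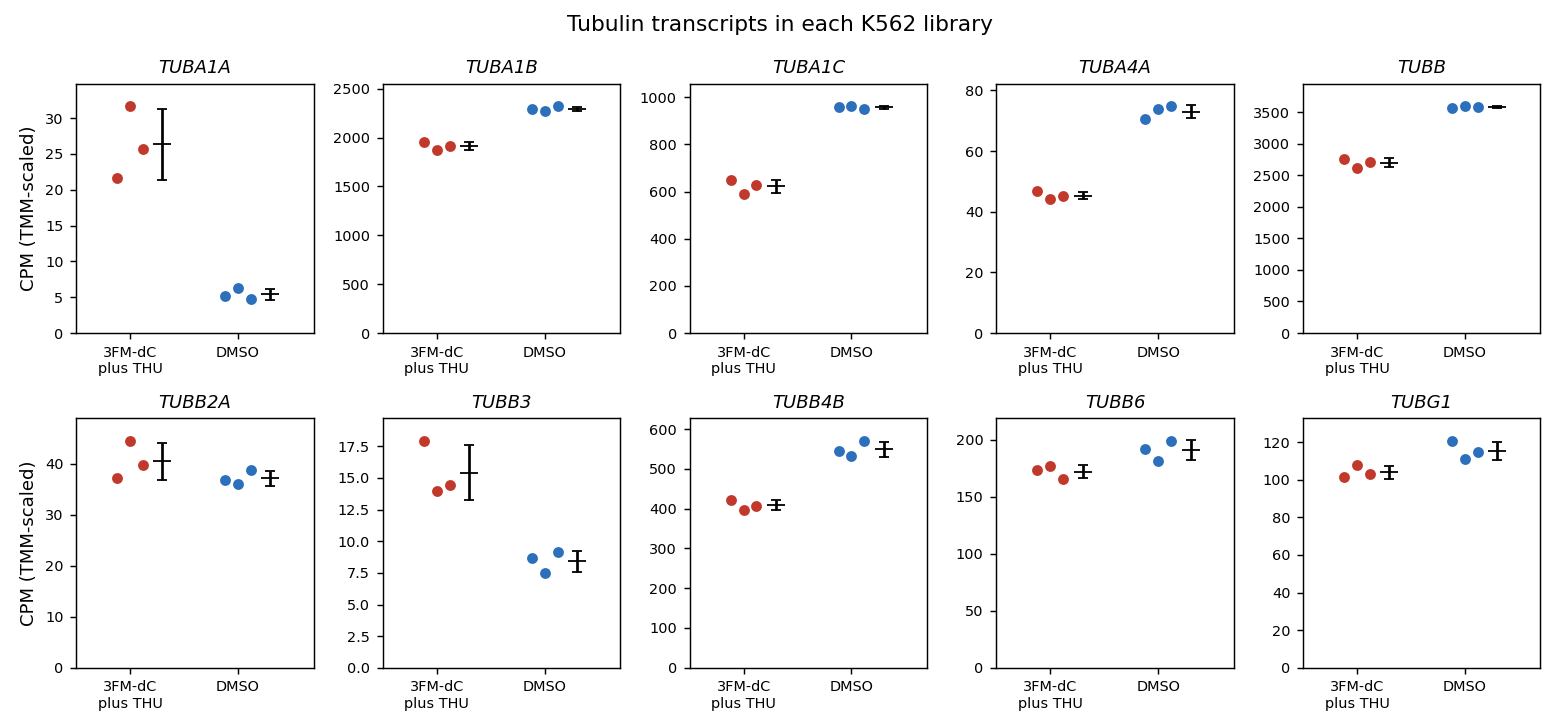
CPM (vertical axes, linear from 0) of each tubulin in the 3 libraries with 3FM-dC plus THU (red) and the 3 with DMSO (blue), with mean and SD in black. The treated points lie above the DMSO points for TUBA1A and TUBB3, overlap them for TUBB2A, and lie below them for the other 7 genes.

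TUBA1B, a widely expressed alpha isotype, was the most abundant alpha-tubulin per length in every library. It had 1958, 1877 and 1911 CPM in treated libraries, against 2291, 2278 and 2320 CPM in DMSO libraries. Every treated library lay below every DMSO library. The gene fell by 0.26 on the log2 scale (SE 0.03, edgeR adjusted p = 3.14e-09), that is by 16.6%. Tested against a minimum fold change of 1.2 the fall did not pass (edgeR adjusted p = 0.464, over a range of 5.69e-20 to 0.464 in all alternatives).

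TUBA1C, a neighbour of TUBA1B that is also widely expressed, fell further. It had 647, 592 and 627 CPM in treated libraries, against 958, 962 and 952 CPM in DMSO libraries. The 3 DMSO libraries were close to one another and all lay above the treated ones. The log2 fold change was -0.62 (SE 0.03, edgeR adjusted p = 1.42e-15). Per 100 counts of TUBA1B, the libraries held 32.5 ± 0.822 counts of TUBA1C in treated cells and 41.7 ± 0.617 in DMSO cells (SD, n = 3 each), with no overlap.

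TUBA4A, an alpha isotype whose gene lacks the codon for the terminal tyrosine that most other alpha-tubulins carry, showed the largest fall of the 10. It had 46.7, 44.1 and 45.2 CPM in treated libraries, against 70.5, 73.8 and 74.8 CPM in DMSO libraries. The groups did not overlap. The log2 fold change was -0.69 (SE 0.06, edgeR adjusted p = 1.24e-11), a level 38.0% lower. Its exons overlap those of the kinase gene STK16 on the opposite strand. The strand setting of the counting is not given in the sources used here, and STK16 itself was higher, with 22.3 ± 1.89 CPM in treated and 19.4 ± 0.702 CPM in DMSO cells (SD, n = 3 each; edgeR adjusted p = 0.0492). STK16 was named after its values were seen.

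TUBA1A, the main alpha isotype of developing neurons, moved the other way from its neighbours. It had 424, 665 and 547 counts in treated libraries, against 94, 112 and 106 counts in DMSO libraries. These correspond to 21.7, 31.7 and 25.6 CPM in treated libraries and to 5.21, 6.27 and 4.81 CPM in DMSO libraries. The lowest treated library was far above the highest DMSO library, and the treated libraries were the more spread. The gene rose 4.88-fold (log2 fold change 2.29, SE 0.13, edgeR adjusted p = 8.07e-15), which placed it at rank 358 from the top among the 12339 tested genes. The log2 fold change ranged from 2.13 to 2.40 over the 13 alternatives. A rise of at least 2-fold was called in 10.2% of all tested genes.

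Since TUBA1A shares sequence with TUBA1B and TUBA1C, which are far more abundant, the ratio of their counts was also taken. Per 100 counts of TUBA1B there were 1.11, 1.69 and 1.34 counts of TUBA1A in treated libraries, against 0.228, 0.276 and 0.207 in DMSO libraries. The groups did not overlap. In GENCODE 29 an exon of TUBA1C also overlaps TUBA1A on the opposite strand. Whether shared or antisense reads have a part in the TUBA1A counts was not tested.

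The 250 bases before the RefSeq start of the 3 chromosome 12 genes are shown because neighbours with near-identical coding sequence went in different directions. Coordinates are of GRCh38.p14, and capitals mark matches on either strand to 6 motifs: the CCAAT box (CCAAT), the GC box (GGGCGG), the TATA box (TATAAA), the cyclic AMP response element (TGACGTCA), the composite site of CEBP and ATF factors (TGATGNAA) and the E-box (CACGTG). For TUBA1C, which has 3 windows in the table, the window nearest the principal transcript is given.
TUBA1A, chr12:49189081-49189330, minus strand: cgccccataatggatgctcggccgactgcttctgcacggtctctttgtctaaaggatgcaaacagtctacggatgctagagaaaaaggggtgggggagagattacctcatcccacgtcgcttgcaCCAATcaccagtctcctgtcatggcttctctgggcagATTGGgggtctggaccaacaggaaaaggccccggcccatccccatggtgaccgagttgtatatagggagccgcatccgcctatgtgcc
TUBA1B, chr12:49131396-49131645, minus strand: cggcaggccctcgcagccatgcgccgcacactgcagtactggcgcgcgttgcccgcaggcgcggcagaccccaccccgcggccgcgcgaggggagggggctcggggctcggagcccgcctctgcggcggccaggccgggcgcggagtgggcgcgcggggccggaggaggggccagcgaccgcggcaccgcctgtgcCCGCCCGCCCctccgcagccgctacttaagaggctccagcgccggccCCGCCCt
TUBA1C, chr12:49264832-49265081, plus strand: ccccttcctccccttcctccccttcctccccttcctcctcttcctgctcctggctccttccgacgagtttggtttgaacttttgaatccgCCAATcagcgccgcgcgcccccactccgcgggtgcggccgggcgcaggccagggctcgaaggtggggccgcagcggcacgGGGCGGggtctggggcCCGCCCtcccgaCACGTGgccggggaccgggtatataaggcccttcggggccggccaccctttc

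The TUBA1A window held 2 CCAAT boxes and 0 GC boxes. The TUBA1B window held 0 CCAAT boxes and 3 GC boxes, of which a pair overlap. The TUBA1C window held 1 CCAAT box, 2 GC boxes and 1 E-box. Over all 35116 such windows of the human genome in the table, 32% held a CCAAT box, 42.6% a GC box, 10.7% a TATA box, 6.34% an E-box, 3.14% the composite site and 1.65% the cyclic AMP response element. These matches describe the letters only.

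TUBB, the most abundant beta isotype and the most abundant of all 10 in CPM and per annotated exonic length, fell in treated cells. It had 2754, 2616 and 2718 CPM in treated libraries, against 3569, 3593 and 3585 CPM in DMSO libraries. The DMSO libraries differed little among themselves and all lay above the treated ones. The log2 fold change was -0.41 (SE 0.03, edgeR adjusted p = 1.51e-13), a level 24.7% lower.

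TUBB4B, a beta isotype found in most tissues and in cilia, fell by nearly the same factor. It had 422, 397 and 407 CPM in treated libraries, against 546, 532 and 570 CPM in DMSO libraries. The groups did not overlap, and the log2 fold change was -0.43 (SE 0.04, edgeR adjusted p = 2.00e-11). Per 100 counts of TUBB there were 15.2 ± 0.173 counts of TUBB4B in treated cells and 15.3 ± 0.541 in DMSO cells (SD, n = 3 each), and these ranges overlapped.

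TUBB6, the class V beta isotype, changed least among the genes that fell, together with TUBG1. It had 174, 177 and 166 CPM in treated libraries, against 192, 182 and 199 CPM in DMSO libraries. The highest treated library lay just below the lowest DMSO library. The log2 fold change was -0.15 (SE 0.04, edgeR adjusted p = 0.00289). With total-count scaling it was -0.06 and did not pass (edgeR adjusted p = 0.211), nor did it pass against a minimum fold change of 1.2 (1.0), over a range of 0.000255 to 1.0.

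TUBB3, the beta isotype best known from neurons, had a low level in this blood line and rose. It had 350, 293 and 308 counts in treated libraries, against 156, 134 and 201 counts in DMSO libraries. In CPM these were 17.9, 13.9 and 14.4 in treated libraries and 8.65, 7.51 and 9.12 in DMSO libraries. The groups did not overlap, and treated replicate 1 stood above the other treated ones. The gene rose 1.82-fold (log2 fold change 0.87, SE 0.13, edgeR adjusted p = 6.57e-07), with a log2 fold change between 0.74 and 0.96 over the 13 alternatives.

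Beside this rise, MC1R, a melanocortin receptor gene just upstream of TUBB3 on chromosome 16, was also higher, a gene named after its values were seen. It had 141, 184 and 200 counts in treated libraries, against 69, 66 and 49 counts in DMSO libraries (log2 fold change 1.40, SE 0.19, edgeR adjusted p = 2.97e-07). GENCODE 29 lists a gene on the same strand whose exons overlap those of TUBB3, and 89.0% of the 100-base windows of the principal TUBB3 transcript occur in another gene. Whether transcripts that run through from upstream add to the TUBB3 counts was not tested.

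TUBB2A, a beta isotype most used in the nervous system, did not pass the test. It had 37.2, 44.4 and 39.7 CPM in treated libraries, against 36.8, 35.9 and 38.7 CPM in DMSO libraries. The groups overlapped, with treated replicate 2 the highest library. Its log2 fold change was 0.12 (SE 0.07, edgeR adjusted p = 0.129). It was called higher with total-count scaling (0.0102), with only genes of at least 5 CPM tested (0.0444) and with treated replicate 1 left out (0.0389); its adjusted p ran between 0.0102 and 1.0 in all alternatives.

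Of the 100-base windows of TUBB2A, 56.4% occur in another gene, most of them in its close copy TUBB2B. TUBB2B had 113, 226 and 177 counts in treated libraries, against 57, 89 and 123 counts in DMSO libraries, and rose (log2 fold change 0.85, SE 0.20, edgeR adjusted p = 0.000585). Treated replicate 2 was the highest library for both copies.

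TUBG1, the gamma-tubulin of the microtubule-nucleating ring complex, fell slightly. It had 101, 108 and 103 CPM in treated libraries, against 121, 111 and 115 CPM in DMSO libraries. The groups did not overlap, but the gap between them was small. The log2 fold change was -0.15 (SE 0.05, edgeR adjusted p = 0.00681). The call was lost with total-count scaling (0.273), against a minimum fold change of 1.2 (1.0) and without DMSO replicate 1 (0.0552), over a range of 0.00128 to 1.0. FAM134C, whose exons overlap TUBG1 on the opposite strand, rose, with 57.4 ± 0.652 CPM in treated and 45.9 ± 0.563 CPM in DMSO cells (SD, n = 3 each; edgeR adjusted p = 1.63e-05). This gene, too, was named after its values were seen.

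**Figure D2:**
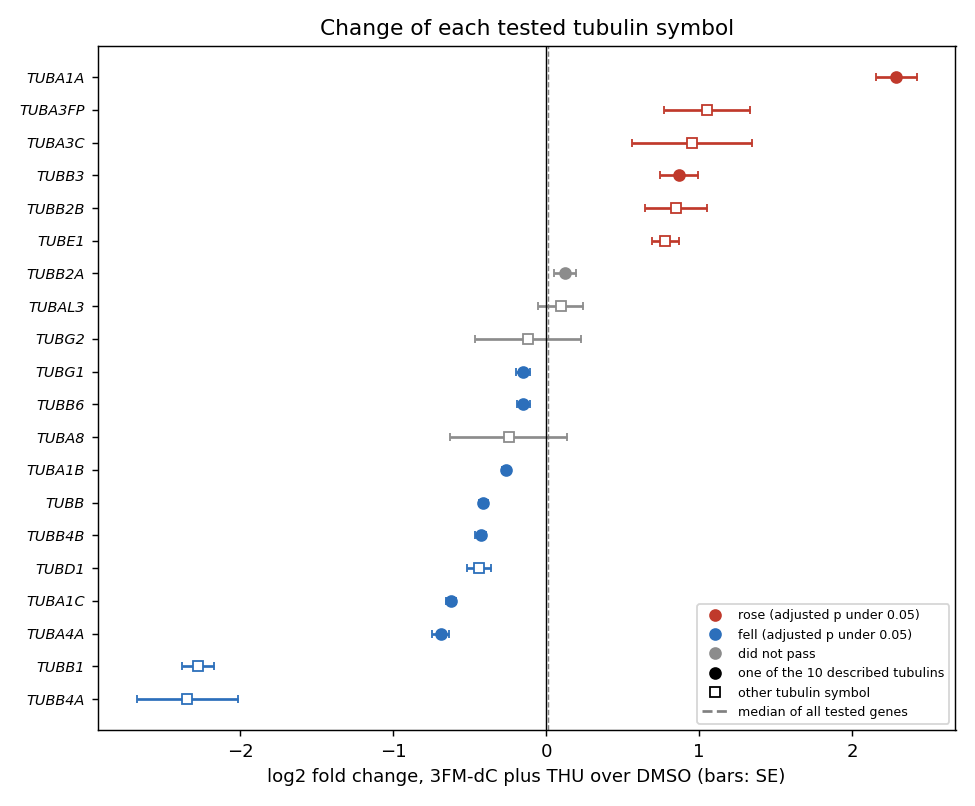
Log2 fold change of treated over DMSO cells (horizontal axis, bars are SE) for the 10 described tubulins (filled circles) and the 10 other tubulin symbols that passed the count filter (open squares), red where they rose, blue where they fell and grey where they did not pass. TUBA1A stands at the top with 2.29 and TUBB4A at the bottom with -2.34, while the 7 described genes that fell lie between -0.69 and -0.15.

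Levels were compared between genes as CPM per kilobase of annotated exon. In DMSO cells the order was TUBB (1066 ± 3.72), TUBA1B (643 ± 6.14), TUBB4B (260.2 ± 8.99), TUBA1C (207 ± 1.09), TUBG1 (47.9 ± 2.04), TUBB6 (46.4 ± 2.12), TUBB2A (21.5 ± 0.813), TUBA4A (17.9 ± 0.543), TUBB3 (1.90 ± 0.187) and TUBA1A (1.59 ± 0.221) (CPM per kilobase, SD, n = 3). TUBG1 and TUBB6 overlapped there, as did TUBB3 and TUBA1A. In treated cells the first 8 places were held in the same order, and TUBA1A (7.70 ± 1.47) stood above TUBB3 (3.48 ± 0.489). The order depends on the lengths used. In mean CPM of DMSO cells, with no length, TUBA1C (957) stood above TUBB4B (549). By the same measure TUBB6 (191) stood above TUBG1 (115), and TUBA4A (73.0) above TUBB2A (37.1).

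Summed over the 4 alpha genes, the level was 2609 ± 64.5 CPM in treated cells and 3332 ± 17.3 CPM in DMSO cells (SD, n = 3 each), a log2 ratio of -0.35. Summed over the 5 beta genes it was 3333 ± 79.7 CPM in treated cells and 4368 ± 28.7 CPM in DMSO cells, a log2 ratio of -0.39. With total-count scaling these ratios were -0.26 and -0.30. Without any scaling beyond depth, the 10 genes took 0.634%, 0.614% and 0.623% of all gene counts in treated libraries, against 0.756%, 0.754% and 0.762% in DMSO libraries. Both sums were thus lower in each treated library than in each DMSO library.

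The make-up of the alpha pool shifted toward TUBA1B. Per exonic length TUBA1B held 77.8 ± 0.219% of the pool in treated cells and 74.0 ± 0.279% in DMSO cells (SD, n = 3 each). TUBA1C held 19.5 ± 0.441% in treated and 23.8 ± 0.265% in DMSO cells, TUBA4A 1.61 ± 0.00865% and 2.06 ± 0.0572%, and TUBA1A 1.12 ± 0.239% and 0.183 ± 0.0264%. None of these shares overlapped between the groups. TUBA1A thus remained a small part of the pool despite the size of its rise.

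In the beta pool the shares of the 2 main genes were close between the groups. TUBB held 75.4 ± 0.367% in treated cells and 76.4 ± 0.674% in DMSO cells, and TUBB4B 18.2 ± 0.182% and 18.6 ± 0.493% (SD, n = 3 each). Both overlapped between the groups, but with coding length the TUBB shares did not, at 80.9 ± 0.354% in treated and 82.1 ± 0.571% in DMSO cells. TUBB6 held 3.93 ± 0.190% in treated and 3.32 ± 0.129% in DMSO cells, TUBB2A 2.20 ± 0.252% and 1.54 ± 0.0456%, and TUBB3 0.327 ± 0.0391% and 0.136 ± 0.0125%, each higher in every treated library. The ratio of the beta to the alpha pool was 1.55 ± 0.00541 in treated and 1.61 ± 0.00415 in DMSO cells. These shares depend on the lengths used and were not tested. With coding length in place of exonic length, TUBB2A held 1.21 ± 0.139% in treated and 0.848 ± 0.0267% in DMSO cells.

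**Figure D3:**
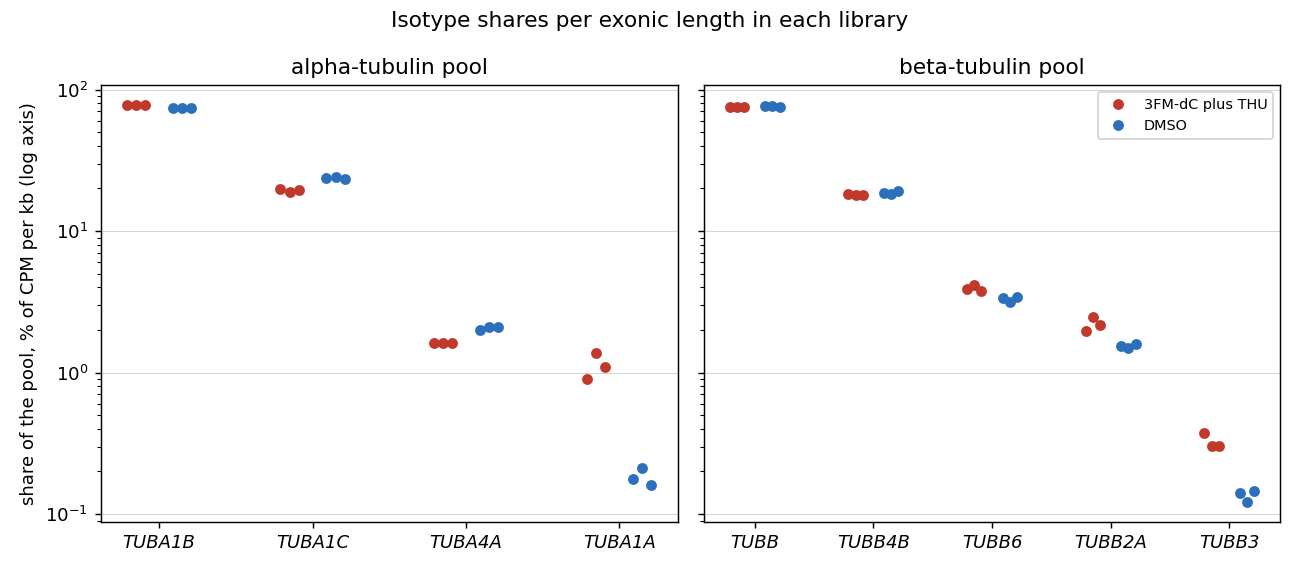
Share of each isotype in the alpha pool (left) and the beta pool (right), in percent of CPM per kilobase on a log axis, for each treated library (red) and each DMSO library (blue). TUBA1B and TUBB make up about 3 in 4 of their pools in every library, and the clearest separation is that of TUBA1A, with 1.12% on average in treated and 0.183% in DMSO cells.

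The files held 15 further tubulin symbols, of which 10 passed the count filter. Of these 10, 4 rose and 3 fell, against 33.8% higher and 32.7% lower over all tested genes, so the share that changed was near that of all genes. TUBB1, the beta isotype of platelets, had 5.73, 6.05 and 5.43 CPM in treated libraries, against 27.4, 26.8 and 29 CPM in DMSO libraries (log2 fold change -2.27, SE 0.11, edgeR adjusted p = 4.19e-17). TUBB1 is also among 6 megakaryocyte and platelet markers, of which 2 passed the count filter and only TUBB1 fell. The 6 summed to 13.7 to 15.7 CPM in treated and 34.2 to 36.6 CPM in DMSO libraries. TUBB1 itself makes up most of the sum in DMSO libraries, so the sum does not show a fall of the other markers. TUBB4A, a brain beta isotype, fell at a low level, with 48 counts in all treated libraries and 228 in all DMSO libraries (log2 fold change -2.34, SE 0.33, edgeR adjusted p = 4.68e-07).

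Delta- and epsilon-tubulin, which act at centrioles, went in opposite directions. TUBE1 had 27.2, 33.0 and 32 CPM in treated libraries, against 18.0, 17.5 and 18.3 CPM in DMSO libraries, and rose (log2 fold change 0.78, SE 0.09, edgeR adjusted p = 5.91e-09). TUBD1 had 30.4, 25.8 and 25.5 CPM in treated libraries, against 36.2, 34.3 and 39.8 CPM in DMSO libraries, and fell (-0.44, SE 0.08, edgeR adjusted p = 2.10e-05). TUBA3C and the pseudogene TUBA3FP also rose at low levels, TUBA3C with 1.39 ± 0.469 CPM in treated and 0.708 ± 0.229 CPM in DMSO cells and TUBA3FP with 3.50 ± 0.980 CPM in treated and 1.69 ± 0.378 CPM in DMSO cells (SD, n = 3 each). The TUBA3C call was lost with DESeq2 (adjusted p = 0.0625) and when either treated replicate 2 or 3 or DMSO replicate 1 or 2 was left out (edgeR adjusted p = 0.0807, 0.177, 0.142 and 0.0906). TUBA8, TUBAL3 and TUBG2 did not pass.

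Before tubulin can polymerise it is folded by the TCP1 ring chaperonin, to which prefoldin delivers it, and assembled into dimers by the tubulin folding cofactors. All 8 chaperonin subunits fell, against 32.7% of all tested genes, with a median log2 fold change of -0.49 (-0.40 with total counts, where all 8 fell too). TCP1 had 788, 718 and 765 CPM in treated libraries, against 1242, 1235 and 1211 CPM in DMSO libraries (log2 fold change -0.70, SE 0.03, edgeR adjusted p = 7.98e-17), and CCT6A fell by 0.57. Of 6 prefoldin subunits 4 fell (32.7% of all tested genes) and none rose, PFDN6 by 0.35 and VBP1 by 0.24 on the log2 scale. With total counts 2 fell and PFDN1 rose, and with DESeq2 3 fell. The falls of PFDN4 and PFDN5 did not pass without treated replicate 3 (edgeR adjusted p = 0.175 and 0.106) or without DMSO replicate 1 (0.192 and 0.119), which leaves 2. Of 10 listed folding cofactors and related proteins 3 fell and 1 rose, against 32.7% and 33.8% of all tested genes. TBCA, which binds beta-tubulin, fell to 97.8 ± 1.08 CPM in treated cells, against 127 ± 1.67 CPM in DMSO cells (SD, n = 3 each). TBCEL, a cofactor-like protein that destabilises tubulin, rose 2.85-fold. PDCL3, a related protein and not a dimer-assembling cofactor, was among the 3 that fell (log2 fold change -0.54). The median of this list was -0.06, and 0.03 with total counts.

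Of 5 genes of the machinery that degrades tubulin mRNA, only CNOT1, the scaffold of the CCR4-NOT deadenylase, changed, against 66.4% of all tested genes. It had 483, 459 and 491 CPM in treated libraries, against 554, 566 and 540 CPM in DMSO libraries (log2 fold change -0.21, SE 0.03, edgeR adjusted p = 4.74e-06). TTC5, the factor that recognises nascent tubulin, had a log2 fold change of -0.14 (edgeR adjusted p = 0.322) and SCAPER, its adaptor, of 0.35 (0.0852). With total counts CNOT10 and SCAPER passed as higher, and without DMSO replicate 2 SCAPER passed as well (0.0465).

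In the gamma-tubulin ring complex and its anchors, 5 of 12 members fell and 2 rose, against 32.7% and 33.8% of all tested genes. The 2 that rose, PCNT and AKAP9, did not pass without treated replicate 3 (edgeR adjusted p = 0.0509 and 0.117) or without DMSO replicate 3 (0.0725 and 0.237). Among the falls, TUBGCP5 did not pass without treated replicate 1 or 2 or DMSO replicate 2 (edgeR adjusted p = 0.0525, 0.0527 and 0.189). MZT1 did not pass without DMSO replicate 1 (0.161). TUBGCP4, a ring subunit, had 50.9, 48.7 and 51.5 CPM in treated libraries, against 70.8, 73.8 and 70.6 CPM in DMSO libraries (log2 fold change -0.51, SE 0.06, edgeR adjusted p = 4.25e-09). TUBGCP2, another ring subunit, fell by 0.20. With DESeq2 5 fell and 1 rose. With total counts 1 fell and 3 rose, and the median of -0.04 turned to 0.05, so no direction can be given for this list.

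Of 18 genes listed for the modification of tubulin, not all of them enzymes, 15 were tested: 7 rose, 3 fell, and the median log2 fold change was 0.25. Over all tested genes 33.8% rose and 32.7% fell, so the share that changed in either direction was near that of all genes. HDAC6, which removes acetyl groups from alpha-tubulin, had 91.9, 92.2 and 93.5 CPM in treated libraries, against 74.4, 72.8 and 74.9 CPM in DMSO libraries (log2 fold change 0.32, SE 0.05, edgeR adjusted p = 1.37e-06). TTLL12, a member of the tubulin tyrosine ligase-like family, fell to 169 ± 8.19 CPM in treated cells, against 298 ± 3.36 CPM in DMSO cells (SD, n = 3 each; log2 fold change -0.82, SE 0.04, edgeR adjusted p = 1.39e-16). TTLL1, the dot farthest to the right in the plot of the lists, rests on very low counts, with 0.768, 1.05 and 0.750 CPM in treated libraries, against 0.0555, 0.112 and 0.0454 CPM in DMSO libraries. With total counts 8 of these genes rose and 2 fell. CCDC23, among the 3 that fell, did not pass there (edgeR adjusted p = 0.0557) or without DMSO replicate 3 (0.0629). AGBL5 passed as higher with total counts (0.00408) and without treated replicate 1 (0.0197).

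Among 15 genes for proteins that stabilise microtubules or bind their ends, 6 rose and 4 fell, shares near the 33.8% and 32.7% of all tested genes, and the median log2 fold change was -0.00 (0.09 with total counts). CLIP1, which tracks growing plus ends, rose 1.99-fold, with 98.6, 112 and 104 CPM in treated libraries, against 54.1, 54.0 and 50.4 CPM in DMSO libraries. CAMSAP2, which binds minus ends, rose 2.28-fold to 19.5 ± 2.92 CPM in treated cells, against 8.58 ± 0.318 CPM in DMSO cells (SD, n = 3 each). Among destabilising and severing proteins 6 of 10 rose and 2 fell (7 and 1 with total counts), against 33.8% and 32.7% of all tested genes. The fall of SPAST, a severing enzyme, did not pass without treated replicate 2 or DMSO replicate 1 or 2 (edgeR adjusted p = 0.0705, 0.0893 and 0.0581), which leaves 1 that fell. KIF18A, a kinesin that shortens mitotic microtubules, had 65.4, 65.0 and 69.6 CPM in treated libraries, against 48.9, 47.7 and 44.5 CPM in DMSO libraries. STMN3, a stathmin that sequesters tubulin dimers, fell to 33.6 ± 3.21 CPM in treated cells, against 69.2 ± 5.26 CPM in DMSO cells (edgeR adjusted p = 1.48e-13).

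**Figure D4:**
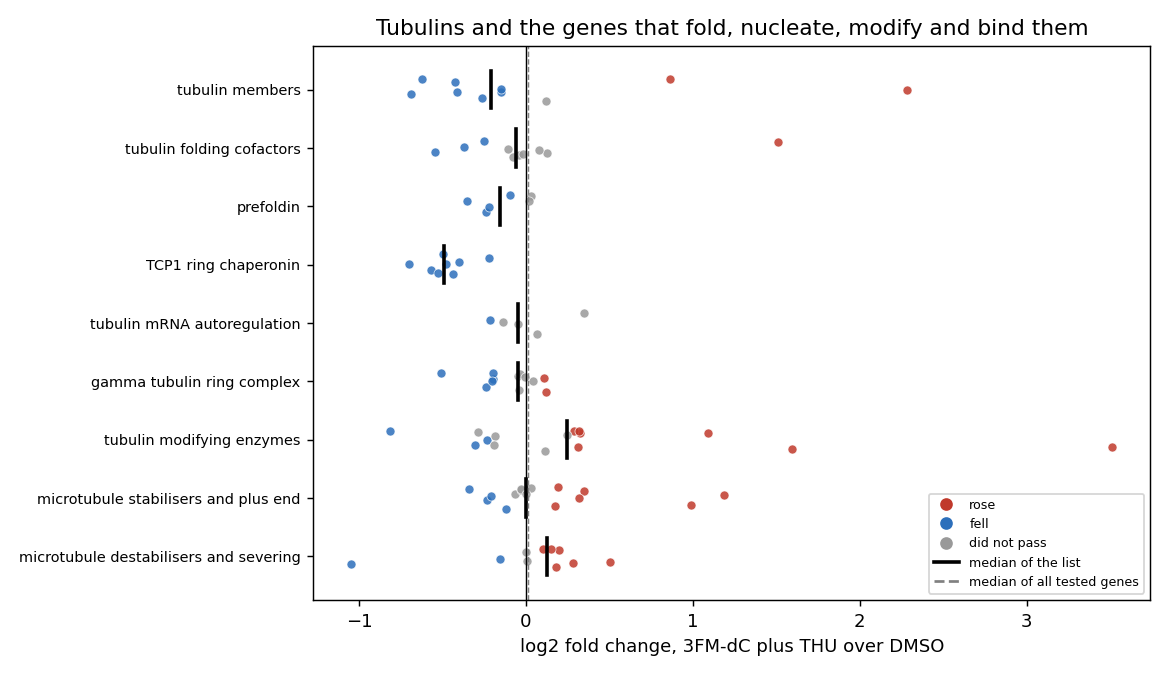
Log2 fold change of treated over DMSO cells (horizontal axis) for the 10 tubulins and the tested genes of 8 lists that fold, degrade, nucleate, modify or bind tubulin, 1 dot per gene, red where it rose, blue where it fell and grey where it did not pass, with the list median as a black bar. All 8 chaperonin subunits lie on the low side, while the other lists spread to both sides of the median of all tested genes.

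The genes whose profile over the 6 libraries lay nearest those of the main isotypes were found by the root mean square distance between centred log2 CPM values, among 8831 other genes that averaged 10 CPM or more. Nearest to TUBB were CS, the citrate synthase gene, at 0.0100 log2 units, the chaperonin subunit CCT3 at 0.0107 and the RNA helicase SKIV2L2 at 0.0113, against a median distance of 0.207. Nearest to TUBA1B were the RNA polymerase subunit POLR2K at 0.0107, the proteasome subunit PSMB4 at 0.0111 and the RNA-binding protein gene YBX1 at 0.0112, against a median of 0.166. The 6 libraries fall into 2 groups, so the measure mostly reflects a like change between them.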

How the data were processed

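Libraries were made with a directional mRNA kit, per the labels' protocols. Each library's deposited file gives the count of reads by gene symbol, with no normalization; STAR, Cufflinks, DESeq2 and hg19 are listed without roles, per the submitters' processing notes. Which program, strand setting and annotation produced the counts is not given in the sources used here. The 5 totals that name no gene were left out; reads in no feature were 10.9% to 13.1% of all counts and ambiguous reads 2.27% to 2.38%.

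Genes were tested with edgeR 4.0.16 in R 4.3.3 (quasi-likelihood, TMM, filterByExpr with a minimum count of 10, treatment as the only term, two-sided, adjusted p under 0.05). The test was also run on simulated data in which few genes changed, evenly up and down. That simulation cannot check the scaling of data in which most genes changed. SE was taken from the log2 fold change and its F statistic. At these depths 3 counts correspond to 0.136 to 0.168 CPM. Replicates differed beyond counting noise (chi-square per degree of freedom 2.38 to 6.22). Exonic lengths, transcripts and overlaps came from GENCODE 29 (GRCh38), matched by symbol for all 10 genes, and promoter windows from RefSeq (GRCh38.p14). The table of the authors' own comparison was not used here.

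All 10 tubulins were described; of each list, the 2 changed genes with the smallest p were named, with values of others, chosen after their values were seen, where a count turns on them. The members and lists were chosen with earlier results of these data known. Alternatives were total-count scaling, DESeq2 1.42.0, limma-voom (limma 3.58.1), other filters, a replicate block, a minimum fold change of 1.2 and leaving out each library.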

Additional observations from a re-analysis of the deposited data

How the results depend on the processing

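Of the 130 log2 fold changes of the 10 tubulins under 13 alternatives, none changed sign, 121 stayed on the same side of the threshold, 6 lost and 3 gained the call, all in TUBA1B, TUBB2A, TUBB6 and TUBG1. Against a minimum fold change of 1.2, 4765 genes changed over all, 2641 higher and 2124 lower, and of the tubulins 4 fell and 2 rose, since that test asks for a larger change. Leaving out a library gave 8 to 10 changed tubulins and 7668 to 8183 changed genes. Total-count scaling moved the median log2 fold change of all genes to 0.10, against 0.01 with TMM. With a replicate block 8050 genes and 9 tubulins changed, and no call of a tubulin changed. Deviations of same-numbered libraries correlated at -0.0086, 0.0012 and -0.055, so the numbers were not taken as pairs. TUBA1A rests on 94, 112 and 106 counts in the DMSO libraries and kept its call in all 13 alternatives.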

Other observations

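The 5 tubulin symbols that did not pass the count filter, TUBA3D, TUBA3E, TUBA4B, TUBB8 and TUBBP5, stayed below 0.50 CPM in every library. TUBA3D had 20 counts over all treated and 20 over all DMSO libraries, and TUBA4B had 5 over treated and 12 over DMSO libraries.

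AFG3L2, a mitochondrial protease gene whose exons overlap TUBB6 on the opposite strand, had 195 ± 8.93 CPM in treated and 225 ± 3.02 CPM in DMSO cells (SD, n = 3 each) and fell by 0.20 on the log2 scale (edgeR adjusted p = 7.56e-05), a gene named after its values were seen.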
